A study of Mus musculus with 16 samples.

Results

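Mouse pre-B cells that carried no BCR-ABL1 were compared with and without SHP2, the protein tyrosine phosphatase encoded by Ptpn11. The comparison used 8 of the 16 RNA-seq libraries of the series, chosen by their genotype labels: 4 SHP2-null libraries, labelled BCR-ABL NULL (-/-)/SHP2 NULL (-/-), and 4 SHP2 wild-type libraries, which share the BCR-ABL NULL label. The other 8 libraries came from pre-B cells with BCR-ABL1, a fusion tyrosine kinase that drives leukemia, again 4 of each SHP2 genotype. They were used here to estimate the spread between libraries and to ask whether the effect of SHP2 loss differed between the settings. The labels give no mouse strain, age, sex, treatment or deletion method, and do not say which exons of Ptpn11 were removed or whether replicates came from separate animals or cultures, so the p-values measure only the spread between these libraries. Gene levels were deposited as FPKM (fragments mapped to a transcript, scaled to its length and to the total fragments mapped) for 23279 gene symbols. Tests covered the 9984 symbols that reached 1 FPKM in 4 or more of the 8 libraries.

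A pre-B cell is a B-lymphocyte progenitor of the bone marrow that has rearranged its heavy-chain gene and displays a pre-B cell receptor made with surrogate light chains. It grows on interleukin-7, whose receptor signals through the JAK kinases to STAT5, while the pre-B cell receptor signals through SYK, BLNK and the RAS-ERK cascade. SHP2 docks on phosphorylated adaptors such as the GAB proteins and promotes activation of RAS, RAF, MEK and ERK; active ERK in turn induces its own brakes, the dual-specificity phosphatases (DUSP), Sprouty (SPRY) and SPRED proteins, and ETS-family factors such as ETV5.

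The libraries held transcripts of pre-B cells and of pro-B cells, the stage before them. The marker list covers both stages, and which of them the cells were at was not tested. Igll1, a surrogate light chain, stood at 565 to 625 FPKM in wild-type and 566 to 786 FPKM in SHP2-null libraries. Dntt, another marker of the list, was at 32.2, 21.3, 82.8 and 89.2 FPKM in wild-type replicates 0 to 3. In SHP2-null replicates 0 to 3 it was at 32.6, 23.1, 256 and 183 FPKM. All 18 pro-B or pre-B markers examined passed the filter. Of these 17 had positive changes (median 0.23, and 0.20 without SHP2-null replicate 2), Il7r alone was called, and their summed level did not overlap, at 3463 to 3726 FPKM in wild type and 3853 to 4304 FPKM in SHP2-null libraries; the part of this shift in the results that follow was not tested. Markers of granulocytes, T or NK cells, erythroid cells and stroma stayed low, with 11 of 12, 11 of 13, 11 of 12 and 11 of 13 below 1 FPKM in all 8 libraries.

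SHP2-null replicate 2 stood apart by its macrophage transcripts. The summed level of the 24 macrophage and monocyte markers was 735 FPKM in it, against 57.6 to 111 in the other SHP2-null and 61.7 to 96.4 in the wild-type libraries, and 21 of the 24 had their highest value there. Lyz2 (lysozyme) was at 403 FPKM in it and at 6.08 to 34.3 FPKM in the other SHP2-null libraries, and Csf1r, the macrophage growth factor receptor, at 3.57 against 0.144 to 0.543 FPKM. C1qa, a complement gene of tissue macrophages, was listed at 0 in every library. Among the 146 genes called below, this library was the most extreme SHP2-null sample in 93, against 23, 12 and 18 for SHP2-null replicates 0, 1 and 3. Results are therefore also given without it. Leaving it out does not remove all macrophage transcripts. Lyz2 was at 34.3 FPKM in SHP2-null replicate 3 and 28.2 FPKM in wild-type replicate 2, and at 5.93 to 12.5 FPKM in the remaining libraries. The macrophage gene Gpnmb was at 8.78 and 6.19 FPKM in those libraries and at 1.27 to 2.72 FPKM in the remaining ones. Ctss alone gave 33.1 to 37.3 FPKM of each sum outside SHP2-null replicate 2.

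**Figure D1:**
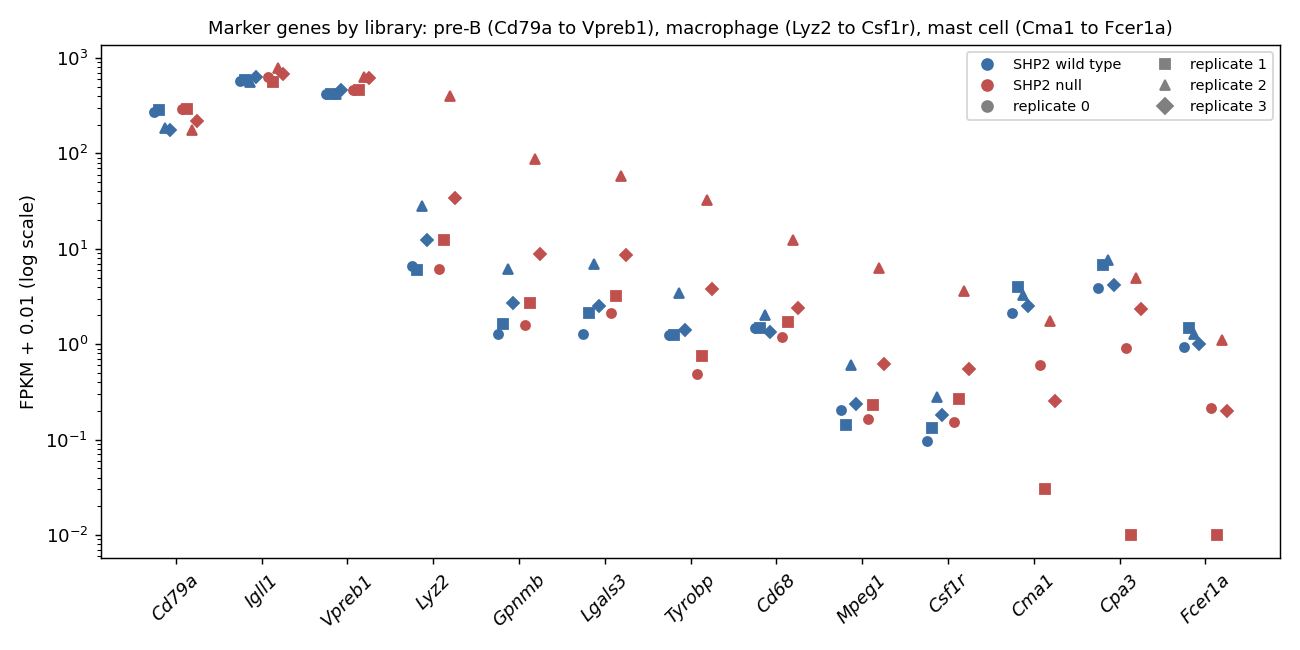
Level of 13 marker genes in each library, as FPKM + 0.01 on a log axis; blue points are SHP2 wild type, red points SHP2 null, and the symbol gives the replicate number. The 3 pro-B or pre-B markers shown overlap between genotypes. SHP2-null replicate 2 (red triangles) is highest for each of the 7 macrophage genes, with Lyz2 at 403 FPKM. The mast cell genes Cma1 and Cpa3 are lower in most SHP2-null libraries.

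Ptpn11 itself (chr5:121130533-121191397, GRCm38) matched the genotype labels. Its level was 16.7, 17.6, 16.1 and 16.5 FPKM in wild-type replicates 0 to 3 and 7.43, 6.81, 2.87 and 6.02 FPKM in SHP2-null replicates 0 to 3. The groups did not overlap, and SHP2-null replicate 2 was the lowest. The mean fell from 16.7 ± 0.647 to 5.79 ± 2.03 FPKM (SD, n = 4 each), which left 34.5% of the wild-type level (two-sided exact permutation test p = 0.0286, the smallest that 4 against 4 samples allow). Gene-level FPKM cannot show which exons the remaining fragments came from, and fewer cells with the transcript cannot be told apart from less transcript per cell, here and in every result that follows.

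Between SHP2-null and wild-type libraries 146 of the 9984 genes differed, 94 higher and 52 lower in SHP2 null (limma, Benjamini-Hochberg adjusted p under 0.05). Dusp6, Dusp7, Spred1, Spred2 and Etv5 of the ERK feedback loop fell, 7 genes of the MHC class I pathway and the interleukin-7 receptor gene rose, and most other pathways examined held few or no called members. The background share of called genes was 1.46% in either direction, 0.942% upward and 0.521% downward, and the median change over all genes tested was 0.020 on the log2(FPKM + 1) scale, on which every change is given (SHP2 null minus wild type). Of the 9984 genes, 5531 had positive and 4453 negative changes, the background for the direction counts of the lists. The levels of 892 genes (8.93%), including 144 of the 146, did not overlap between genotypes. Only 25 called genes changed by 2-fold or more on this scale, 12 up and 13 down. At an unadjusted p under 0.05 there were 1593 genes (16.0%). The share of calls that were higher was 64.4%, and it was 55.6% after median-ratio scaling and 54.2% after quantile normalization.

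The number of calls depended on how the spread between libraries was estimated. Without SHP2-null replicate 2, 99 genes were called (0.992%), 88 of them among the 146, and all 146 kept their direction. With the replicate number as a block the count was 584 (5.85%) and took in all 146. A fit on the 8 libraries alone, which has fewer libraries from which to estimate the spread, called 33 genes (0.331%), all among the 146. The block and the 8-library fit leave each estimated change as it was and alter only its error.

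**Figure D2:**
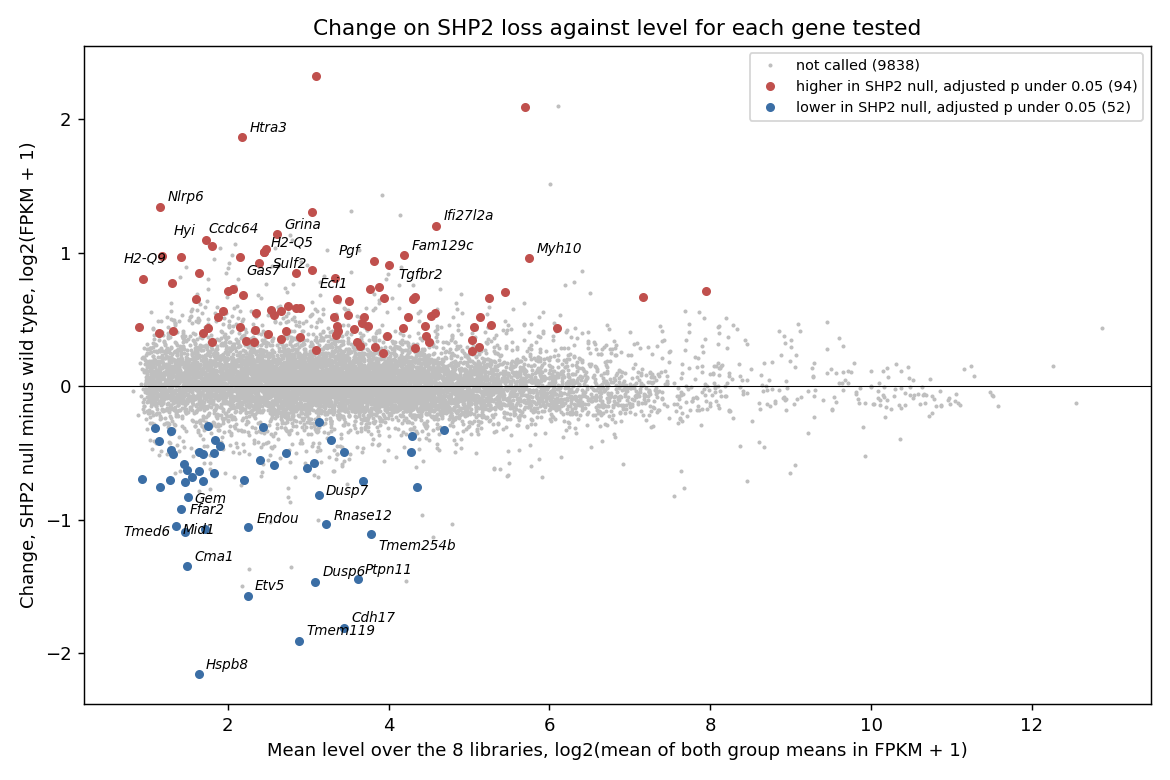
Change of each of the 9984 genes, SHP2 null minus wild type on the log2(FPKM + 1) scale, against its mean level over the 8 libraries; red points are the 94 genes called higher, blue the 52 called lower, grey the rest. The 15 largest named changes in each direction are labelled, from Htra3 at 1.86 to Hspb8 at -2.16.

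Part of the inhibitors that ERK signalling induces against itself fell in SHP2-null cells. Of 13 listed feedback inhibitors, 9 passed the filter, 4 with positive and 5 with negative changes. Among the 9, 4 were called lower (Dusp6, Dusp7, Spred1 and Spred2), where 0.521% of all genes were, and none was called higher. The median change was -0.46, against 0.020 over all genes. Without SHP2-null replicate 2 the median was -0.34 and 3 of the 4 stayed called, where 0.371% of all genes were called lower. Dusp6, the cytoplasmic phosphatase that inactivates ERK, measured 10.1, 9.03, 14.8 and 11.2 FPKM in wild-type replicates 0 to 3 and 4.88, 3.68, 1.21 and 5.12 FPKM in SHP2-null replicates 0 to 3. Every SHP2-null library was below every wild-type one. The change was -1.46 ± 0.24 (SE; adjusted p = 0.00433), and -1.13 without SHP2-null replicate 2 (adjusted p = 0.000700). In the fit on the 8 libraries alone the adjusted p was 0.108.

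Dusp7, a close relative of Dusp6 that also acts on ERK, fell from 10.1 ± 0.924 to 5.46 ± 1.63 FPKM (SD, n = 4 each; -0.81 ± 0.16, adjusted p = 0.0178; 0.146 on the 8 libraries alone). Its call was lost without wild-type replicates 2 or 3 (adjusted p from 0.0537 to 0.0662). Spred1 and Spred2 encode membrane proteins that restrain RAS and RAF. Spred2 measured 1.58, 1.82, 2.43 and 2.30 FPKM in the wild-type libraries and 1.02, 0.822, 0.825 and 0.751 FPKM in the SHP2-null ones, a fall of low but separate levels (-0.70 ± 0.10, adjusted p = 0.00174; 0.0372 on the 8 libraries alone). Spred1 measured 17.8, 13.9, 14.9 and 12.8 FPKM in the wild-type libraries and 11.3, 11.3, 5.82 and 7.26 FPKM in the SHP2-null ones. Its groups were also separate (-0.71 ± 0.16, adjusted p = 0.0342), but the call was lost on the 8 libraries alone (0.200), without SHP2-null replicate 2 (adjusted p = 0.0787), and without SHP2-null replicate 3 or wild-type replicates 0, 1 or 2 (adjusted p from 0.0513 to 0.0979).

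Another pair of members did not pass the test but did with the replicate block. Spry1, which encodes a Sprouty inhibitor, was at 2.04 to 2.88 FPKM in wild type and 0.873 to 1.996 FPKM in SHP2-null cells (-0.46 ± 0.12, adjusted p = 0.0720; 0.0381 with the block, 0.111 with it but without SHP2-null replicate 2). Dusp2, a nuclear phosphatase of ERK and p38, lay the other way, at 19.04 to 22.5 against 24.1 to 29.7 FPKM (0.34 ± 0.081, adjusted p = 0.0509; 0.0255 with the block, 0.0758 with it but without SHP2-null replicate 2).

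Etv5, an ETS factor downstream of ERK, fell most among the transcription factors examined. It measured 5.62, 5.41, 5.19 and 7.58 FPKM in wild-type replicates 0 to 3, and 2.82, 2.30, 0.214 and 0.887 FPKM in the SHP2-null ones. The groups were separate, and SHP2-null replicates 2 and 3 were lower than 0 and 1. The change was -1.57 ± 0.26 (adjusted p = 0.00433; 0.108 on the 8 libraries alone), and -1.26 without SHP2-null replicate 2 (adjusted p = 0.00289). It was the only called gene among 14 tested ERK-responsive and immediate-early factors, of which 12 had positive changes and the median was 0.17. Nr4a1, an orphan nuclear receptor induced early by antigen receptors, was at 0.491 to 1.02 FPKM in wild type and 1.28 to 1.51 FPKM in SHP2-null cells without passing the test (0.44 ± 0.11, adjusted p = 0.0564; 0.0298 with the block, 0.0746 with it but without SHP2-null replicate 2).

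**Figure D3:**
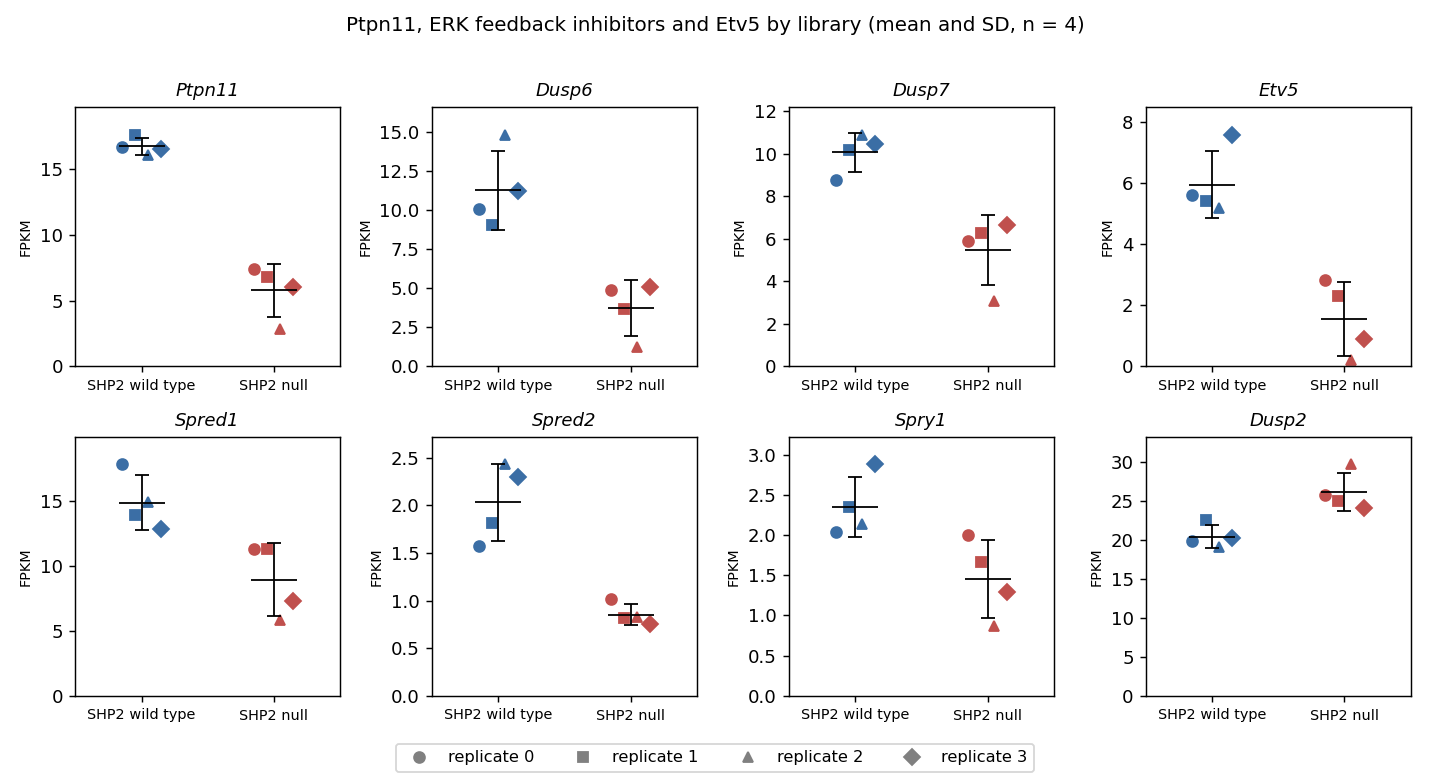
Level in FPKM of Ptpn11, 6 ERK feedback inhibitors and Etv5 in each library; the symbol gives the replicate number, the bar the group mean and the whisker the SD (n = 4). No gene shown overlaps between genotypes, with Dusp2 higher and the others lower in SHP2-null libraries, and all but Spry1 and Dusp2 passed the test. SHP2-null replicate 2 is the lowest point for Ptpn11, Dusp6, Dusp7, Etv5, Spred1 and Spry1.

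The size of these falls differed between pairs of replicate numbers. In numbers 0 and 1 the change was -1.01 for Dusp6, -0.88 for Etv5 and -0.49 for Spred2. In numbers 2 and 3 it was -1.92, -2.27 and -0.91. The direction was the same in both pairs for all 3 genes, and the first principal component of the 8 libraries, 38.8% of their variance, had numbers 0 and 1 on one side and 2 and 3 on the other.

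Transcripts of the cascade that SHP2 feeds held 1 called gene. Of 16 kinases and scaffolds of the RAF, MEK, ERK and RSK steps none was called by limma (4 at an unadjusted p under 0.05; median 0.11), and of 25 SHP2 partners and RAS regulators only Rasa3 was called. Rasa3, a GTPase-activating protein of RAS and RAP1, rose from 28.9 ± 0.828 to 34.9 ± 1.37 FPKM (0.26 ± 0.052, adjusted p = 0.0167; 0.152 on the 8 libraries alone), a call lost without SHP2-null replicate 0 or wild-type replicates 0 or 2 (adjusted p from 0.0507 to 0.0569). Rasa2, another GTPase-activating protein, was at 4.80 to 6.11 against 2.89 to 4.24 FPKM (-0.43 ± 0.10, adjusted p = 0.0564; 0.00773 with the block). Gab2, an adaptor on which SHP2 docks, did not pass the test (0.44 ± 0.12, adjusted p = 0.0975) and was highest in SHP2-null replicate 2, at 7.17 FPKM.

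Among 18 protein tyrosine phosphatases tested, Ptpn9 alone was called. Ptpn9, a phosphatase of vesicle membranes, fell from 6.76 ± 0.504 to 4.49 ± 0.565 FPKM (-0.50 ± 0.075, adjusted p = 0.00252; 0.0598 on the 8 libraries alone). Ptpn1 (PTP1B) was at 7.55 to 8.15 against 9.46 to 10.9 FPKM and did not pass (adjusted p = 0.0885; 0.0160 with the block, 0.0515 with it but without SHP2-null replicate 2). None of 12 SRC-family and other tyrosine kinases was called by limma (1 at an unadjusted p under 0.05). Syk, the kinase of the pre-B cell receptor, passed with the block (adjusted p = 0.0249; 0.0526 with it but without SHP2-null replicate 2). Blk, a SRC-family kinase of B cells, was at 36.8 to 44.7 FPKM in wild type, at 12.01 FPKM in SHP2-null replicate 2 and at 54.6 to 64.2 FPKM in the other SHP2-null libraries; its change was -0.060 (adjusted p = 0.951), and 0.49 without that library (adjusted p = 0.0373). Both are named after their values were seen.

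Il7r, the interleukin-7 receptor chain that pre-B cells need for growth, rose in SHP2-null cells. Its level (chr15:9506159-9529941) was 5.30, 6.42, 6.31 and 7.13 FPKM in wild-type replicates 0 to 3, and 9.88, 11.6, 15.7 and 10.6 FPKM in the SHP2-null ones. All SHP2-null libraries were higher than all wild-type ones, with replicate 2 the highest. The change was 0.81 ± 0.12 (adjusted p = 0.00252), 0.68 without SHP2-null replicate 2 (adjusted p = 0.00313), and the adjusted p was 0.0510 on the 8 libraries alone. Within numbers 0 and 1 the change was 0.77, within numbers 2 and 3 0.85.

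The Il7r promoter from RefSeq (GRCm38.p6, chr15:9529827-9530126, minus strand), from 250 bases before to 50 bases after the annotated start and written 5′ to 3′, is shown because its gene rose; the capitals mark its 1 match to TTCNNNGAA, the letters of a STAT site, which 8.30% of all promoters held on either strand (the motif reads the same on both).
Il7r: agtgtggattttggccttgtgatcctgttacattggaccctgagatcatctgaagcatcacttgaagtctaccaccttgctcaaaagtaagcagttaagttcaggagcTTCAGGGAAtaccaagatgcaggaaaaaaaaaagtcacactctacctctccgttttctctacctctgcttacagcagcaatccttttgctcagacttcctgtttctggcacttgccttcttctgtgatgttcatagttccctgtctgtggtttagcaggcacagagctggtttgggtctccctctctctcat

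The rest of the interleukin-7 receptor, JAK and STAT list showed small positive changes. Of 12 tested members 11 had positive changes (median 0.18, and 0.15 without SHP2-null replicate 2), and Il7r alone was called. Stat5a, which carries the interleukin-7 signal, was at 6.83 to 8.34 FPKM in wild type and 9.20 to 10.2 FPKM in SHP2-null cells (0.34 ± 0.084, adjusted p = 0.0579; 0.0172 with the block, 0.0567 with it but without SHP2-null replicate 2). Jak1, the kinase bound to the receptor, was the exception, at 26.4 to 31.9 against 21.7 to 27.6 FPKM (-0.24 ± 0.089, adjusted p = 0.209; 0.0335 with the block).

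None of 15 STAT5 targets was called by limma (4 at an unadjusted p under 0.05), and 12 of them had positive changes (median 0.070). With the block 3 were called (background 5.85%). Socs3, the feedback inhibitor of cytokine receptors, was at 2.996, 4.32, 5.10 and 5.52 FPKM in the wild-type libraries and 7.67, 6.89, 12.9 and 10.1 FPKM in the SHP2-null ones. Its groups did not overlap, and the change of 0.91 ± 0.23 had an adjusted limma p of 0.0604. With the block, whose term for each replicate number was fitted over all 16 libraries, the adjusted p was 0.000162. In the block fit on the 8 libraries alone, which sets each SHP2-null library against the wild-type library of its number, it was 0.0474. The survival kinase gene Pim1 (0.40 ± 0.14, adjusted p = 0.189; 0.00610 with the block) and the survival gene Bcl2l1 (0.65 ± 0.27, adjusted p = 0.253; 0.0208 with the block, 0.0673 with it but without SHP2-null replicate 2) also passed with the block. Il2ra, a receptor chain induced by STAT5, was at 11.7 FPKM in SHP2-null replicate 2 and at 2.09 to 2.85 FPKM in the other 3 SHP2-null libraries (adjusted p = 0.276).

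Tgfbr2 encodes the ligand-binding receptor for TGF-beta, a growth-restraining cytokine. It rose from 12.1, 11.5, 9.01 and 8.34 FPKM in the wild-type libraries to 22.1, 21.7, 19.1 and 16.97 FPKM in SHP2-null cells, with every SHP2-null library above every wild-type one. The change of 0.91 ± 0.16 (adjusted p = 0.00587) was also called on the 8 libraries alone (0.0284) and without SHP2-null replicate 2 (0.0172). It was the only one called of 22 tested receptors for cytokines and growth factors.

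Of 22 FOXO factors, FOXO targets and inhibitors of cyclin-dependent kinases, Cdkn2d alone was called. Cdkn2d, which encodes the CDK4/6 inhibitor p19-INK4d, rose from 11.5, 10.9, 10.1 and 8.81 to 14.5, 15.5, 13.3 and 14.4 FPKM, without overlap (0.45 ± 0.081, adjusted p = 0.00830; 0.0848 on the 8 libraries alone). Its relative Cdkn2c (p18-INK4c) was at 19.1 to 26.8 against 30.8 to 34.99 FPKM (0.42 ± 0.10, adjusted p = 0.0529; 0.0297 with the block, 0.0620 with it but without SHP2-null replicate 2). None of 34 DNA replication and E2F genes (median 0.040), 30 mitosis genes (0.049) or 14 cyclin, CDK and RB genes (0.040) was called by limma. Of these, 4, 0 and 0 had an unadjusted p under 0.05, and with the block 2, 0 and 0 were called (background 5.85%). Uhrf1, a replication-coupled methylation factor, had the smallest p of the replication list (0.32 ± 0.079, adjusted p = 0.0582; 0.0176 with the block).

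The MHC class I pathway, which displays peptides on the cell surface, had the most called members of the lists examined. Of 27 listed genes 23 passed the filter, and 21 of these had positive changes. Among the 23, 7 were called higher (H2-T10, H2-Q5, H2-Q4, H2-Q9, H2-K1, Tap1 and Nlrc5), against a background of 0.942% upward, and none was called lower. The median change was 0.40, against 0.020 over all genes, and 0.37 with 6 members called (background 0.621% upward) without SHP2-null replicate 2. With the replicate block 15 members were called (background 4.07% upward), and on the 8 libraries alone 2, H2-T10 and H2-Q5 (background 0.23% upward). Of the 7 first named, all but Nlrc5 lie on chromosome 17, where 21 of 543 tested genes were called higher, these included. The shares given above are over all chromosomes, and the part of chromosome 17 in this result was not tested. The class I genes are a family of similar sequences, so fragments may have been assigned between H2-Q4, H2-Q5, H2-Q9, H2-K1 and H2-T10 and their separate values are uncertain; Tap1 and Nlrc5 are not members of that family.

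The RefSeq promoters (GRCm38.p6) of the 2 called class I heavy-chain genes with an entry are shown because these genes rose together; each runs from 250 bases before to 50 bases after an annotated start, 5′ to 3′ on the gene's strand, with matches to GGGANNNCC (the NF-kappaB site of class I enhancers) and CCAAT on either strand in capitals and overlapping matches joined. H2-K1 lies at chr17:34000298-34000597, minus strand, the first of 2 promoters listed for it, and H2-Q4 at chr17:35379367-35379666, plus strand.
H2-K1: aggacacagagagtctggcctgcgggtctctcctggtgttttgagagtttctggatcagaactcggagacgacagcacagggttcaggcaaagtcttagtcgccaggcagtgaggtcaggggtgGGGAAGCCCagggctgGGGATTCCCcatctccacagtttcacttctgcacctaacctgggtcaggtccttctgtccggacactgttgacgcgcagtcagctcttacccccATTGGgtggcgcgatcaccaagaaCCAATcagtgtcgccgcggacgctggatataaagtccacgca
H2-Q4: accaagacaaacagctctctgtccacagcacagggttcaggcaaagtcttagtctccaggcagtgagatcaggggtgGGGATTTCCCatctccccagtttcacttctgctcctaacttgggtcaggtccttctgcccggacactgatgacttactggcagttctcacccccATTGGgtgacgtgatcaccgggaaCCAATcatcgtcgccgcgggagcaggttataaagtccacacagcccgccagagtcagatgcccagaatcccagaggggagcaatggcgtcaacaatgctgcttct
Matches to GGGANNNCC fell in 2 stretches of the H2-K1 promoter and 1 of H2-Q4, and each promoter held 2 CCAAT matches. Of all 32851 promoters in the table, 18.6% held GGGANNNCC and 37.4% held CCAAT. The Tap1 promoter held CCAAT and no match to GGGANNNCC.

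H2-K1, a classical class I heavy chain and the most abundant of the called ones, measured 164, 204, 178 and 193 FPKM in wild-type replicates 0 to 3, and 259.96, 241, 416 and 317 FPKM in the SHP2-null ones. The groups were separate, with SHP2-null replicate 2 the highest (0.71 ± 0.16, adjusted p = 0.0316), but the call was lost without that library (adjusted p = 0.0787) and without SHP2-null replicate 3 or wild-type replicates 0, 2 or 3 (adjusted p from 0.0701 to 0.0999). H2-Q4, a class Ib chain, was at 28.6, 30.1, 28.4 and 26.5 FPKM in the wild-type libraries and 41.1, 41.7, 59.1 and 41.95 FPKM in the SHP2-null ones, again with replicate 2 highest and no overlap. Its change was 0.66 ± 0.11 (adjusted p = 0.00583; 0.00873 without SHP2-null replicate 2; 0.0667 on the 8 libraries alone).

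H2-T10, another class Ib chain, had close replicates, at 4.29 to 5.07 FPKM in wild type and 7.53 to 7.92 FPKM in SHP2-null cells (0.58 ± 0.065, adjusted p = 0.000197; 0.0121 on the 8 libraries alone). Tap1, the peptide transporter subunit that loads class I molecules, rose from 27.2 ± 1.72 to 37.4 ± 2.16 FPKM (SD, n = 4 each; 0.44 ± 0.074, adjusted p = 0.00456; 0.0507 on the 8 libraries alone). Nlrc5, the transactivator of class I genes, rose from 19.1 ± 0.726 to 24.3 ± 1.88 FPKM (0.33 ± 0.062, adjusted p = 0.0117; 0.126 on the 8 libraries alone). H2-Q5 and H2-Q9, other H2-Q genes, were at 2.10 to 3.30 against 5.14 to 8.61 FPKM (1.01 ± 0.16, adjusted p = 0.00371) and at 0.623 to 1.20 against 1.83 to 3.93 FPKM (0.97 ± 0.18, adjusted p = 0.0121). The call of H2-Q9 was lost without wild-type replicate 2 (adjusted p = 0.0509). H2-T10 and Tap1 changed by similar amounts in numbers 0 and 1 (0.53 and 0.45) and in numbers 2 and 3 (0.64 and 0.44), whereas H2-K1 changed by 0.45 and 0.97.

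Interferon-induced genes had mostly positive changes, and their size moved with SHP2-null replicate 2. Of 29 tested, 27 had positive changes with a median of 0.34, which was 0.19 without SHP2-null replicate 2, and only Ifi27l2a was called. With the block 8 were called, all higher (background 4.07% upward). In the fit with no block and without SHP2-null replicate 2 none was. Over all libraries 14 of the 29 had an unadjusted limma p under 0.05. With the block and without that library, Oas1a and Irf9 of this list passed (adjusted limma p of 0.00155 and 0.0448) and Irf1 did not (0.0634). Ifi27l2a, an interferon-induced membrane protein gene, rose from 20.98, 15.3, 12.4 and 7.43 to 29.8, 33.2, 42.4 and 23.8 FPKM (1.20 ± 0.24, adjusted p = 0.0192), a call lost without SHP2-null replicate 2 or wild-type replicate 2 (adjusted p from 0.0662 to 0.0696). Irf9, a subunit of the interferon-responsive factor ISGF3, was at 15.1 FPKM in SHP2-null replicate 2, 8.16 to 8.60 FPKM in the other SHP2-null libraries and 5.46 to 6.95 FPKM in wild type (adjusted p = 0.0720; 0.0284 with the block). The macrophage markers were highest in the same library, and their part in these values was not tested. None of 11 MHC class II pathway genes was called by limma (0 at an unadjusted p under 0.05), and the median was 0.19. With the block 1 was called (background 5.85%), H2-Aa, a class II chain (adjusted p = 0.00792), which is named after its values were seen.

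**Figure D4:**
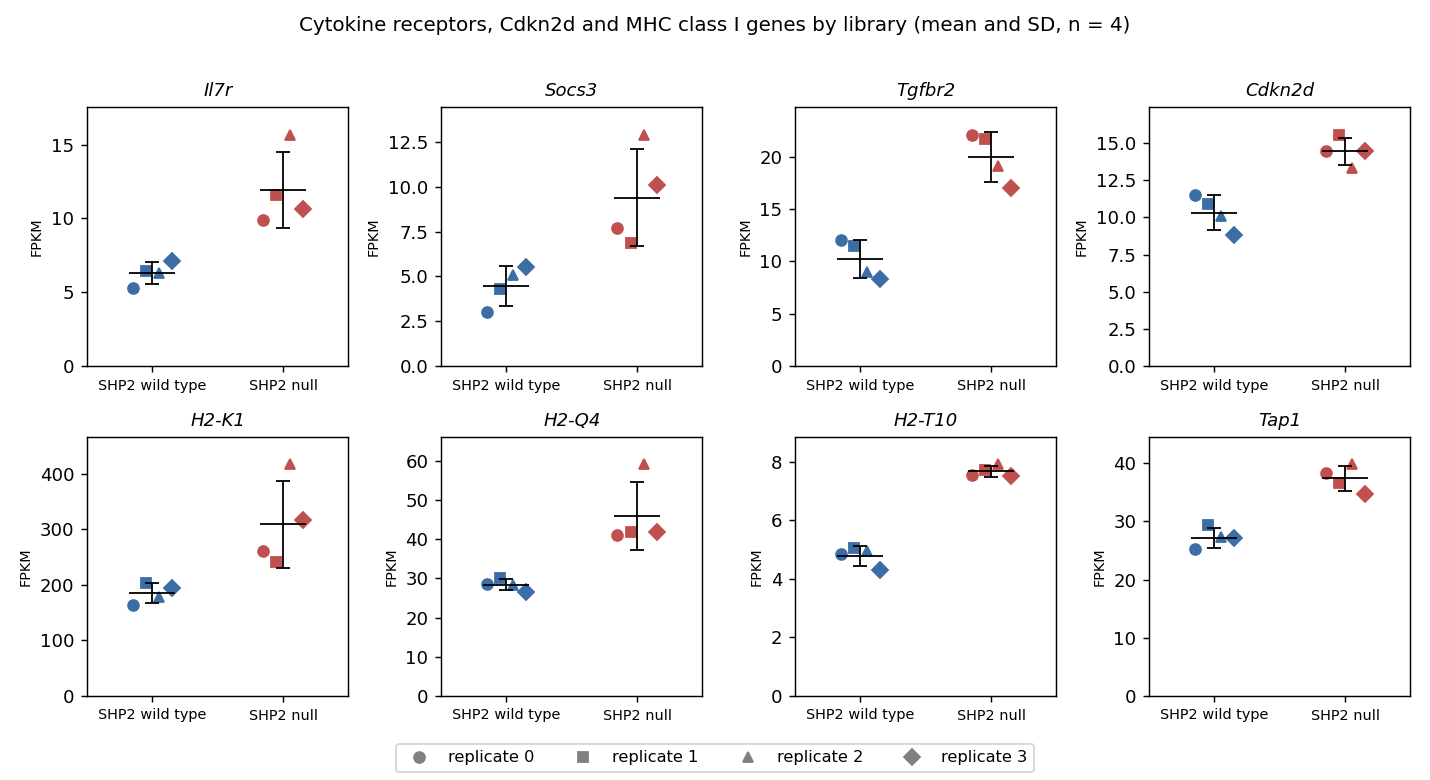
Level in FPKM of 2 cytokine receptors, Socs3, Cdkn2d and 4 MHC class I pathway genes in each library; the symbol gives the replicate number, the bar the mean and the whisker the SD (n = 4). None of the 8 genes overlaps between genotypes, and all but Socs3 passed the test; SHP2-null replicate 2 (red triangles) is far above the others for H2-K1 and H2-Q4 and not for Tgfbr2, H2-T10 or Cdkn2d.

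The largest falls were in genes of varied function. Hspb8, a small heat-shock protein, measured 1.79, 3.06, 5.17 and 6.63 FPKM in wild-type replicates 0 to 3, and 0.0319, 0.0225, 0.0965 and 0.162 FPKM in the SHP2-null ones. Its 4 SHP2-null values were near 0 while the wild-type values spread widely (-2.16 ± 0.27, adjusted p = 0.000511; 0.0154 on the 8 libraries alone). Tmem119, a membrane protein best known as a microglial marker, was at 4.9997, 10.3, 12.9 and 14.3 FPKM in the wild-type libraries and 2.55, 1.75, 0.492 and 3.997 FPKM in the SHP2-null ones (-1.91 ± 0.30, adjusted p = 0.00371; 0.105 on the 8 libraries alone). Both groups varied widely, and they did not overlap.

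Smaller falls were those of Ffar2, a receptor for short-chain fatty acids, from 2.49 ± 0.321 to 0.864 ± 0.340 FPKM (adjusted p = 0.00137), and of Mid1, an E3 ubiquitin ligase, from 2.43 ± 0.438 to 0.673 ± 0.343 FPKM (adjusted p = 0.00433). Both stayed called on the 8 libraries alone (adjusted p of 0.0349 for Ffar2 and 0.0349 for Mid1). Rnase12, of the ribonuclease A family, fell from 11.6 ± 2.72 to 5.11 ± 1.05 FPKM (adjusted p = 0.00456; 0.0667 on the 8 libraries alone), and Gem, a small GTPase that regulates the cytoskeleton and calcium channels, from 2.65 ± 1.01 to 1.01 ± 0.287 FPKM (adjusted p = 0.0224). The call of Gem was lost without SHP2-null replicate 2 or wild-type replicates 2 or 3 (adjusted p from 0.0557 to 0.0748). Tmed6, of secretory vesicle transport, fell by 1.10, Endou, an endoribonuclease, by 1.06 and Tmem254b by 1.11, with adjusted p of 0.0230, 0.0418 and 0.0418. The call of Tmed6 was lost without SHP2-null replicates 1 or 2 or wild-type replicate 0 (adjusted p from 0.0517 to 0.0787), that of Endou without SHP2-null replicates 2 or 3 or wild-type replicates 1, 2 or 3 (adjusted p from 0.0524 to 0.141) or with a pseudocount of 0.1 (0.0520), and that of Tmem254b without any 1 of the libraries except SHP2-null replicate 3 (adjusted p up to 0.109).

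Among mast cell genes Cma1 fell. This mast cell chymase gene measured 2.10, 3.98, 3.29 and 2.52 FPKM in the wild-type libraries and 0.594, 0.0204, 1.75 and 0.246 FPKM in the SHP2-null ones (-1.35 ± 0.22, adjusted p = 0.00433; 0.120 on the 8 libraries alone). The libraries with BCR-ABL1, between which the change of Cma1 was 0, also entered the error estimate behind this call. Without them the call was lost. Cpa3, the mast cell carboxypeptidase, was at 3.90, 6.76, 7.54 and 4.16 FPKM in the wild-type libraries and 0.896, 0, 4.96 and 2.34 FPKM in the SHP2-null ones; its groups overlapped through SHP2-null replicate 2, and the adjusted p was 0.128, 0.0289 without that library and 0.0327 with the block. Summed over the 12 mast cell and basophil markers, of which 2 passed the filter and 7 were below 1 FPKM in all 8 libraries, the level ran from 8.34 to 14.4 FPKM in wild type and from 0.280 to 4.10 FPKM in SHP2-null replicates 0, 1 and 3, and was 15.7 FPKM in SHP2-null replicate 2. Prss34, a basophil and mast cell protease, was listed at 0 in 7 of the 8 libraries.

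Among called genes with established symbols, Htra3, a secreted serine protease, had the largest rise. Gm10653 (2.32 ± 0.25, adjusted p = 0.000170) and the small RNA gene Scarna3a (2.09 ± 0.42, adjusted p = 0.0192; lost without SHP2-null replicates 0 or 2 or wild-type replicates 2 or 3 (adjusted p from 0.0552 to 0.0712)) rose further and are named after their values were seen. Htra3 measured 0.453, 0.792, 1.03 and 1.46 FPKM in the wild-type libraries and 5.10, 4.37, 9.18 and 5.86 FPKM in the SHP2-null ones, with no overlap (1.86 ± 0.31, adjusted p = 0.00433; 0.0141 on the 8 libraries alone). Nlrp6, an innate immune sensor, was at 0.110 to 0.348 FPKM in wild type and 1.07 to 3.36 FPKM in SHP2-null cells (1.35 ± 0.21, adjusted p = 0.00282). Fam129c, a gene expressed in B cells, rose from 12.05, 11.4, 11.8 and 9.77 to 19.96, 19.6, 26.6 and 27.2 FPKM (0.98 ± 0.12, adjusted p = 0.000441; 0.0154 on the 8 libraries alone). Grina (1.14 ± 0.14, adjusted p = 0.000633) and Gas7, a growth-arrest gene that binds actin (0.97 ± 0.14, adjusted p = 0.00210), also stayed called on the 8 libraries alone (0.0440 and 0.0467).

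Rises also included Hyi, of hydroxypyruvate metabolism (1.09 ± 0.18, adjusted p = 0.00456), Sulf2, an extracellular heparan sulfatase (1.00 ± 0.19, adjusted p = 0.0139), and the placental growth factor gene Pgf (0.94 ± 0.21, adjusted p = 0.0343). None of these 3 was called on the 8 libraries alone (adjusted p of 0.0587, 0.120 and 0.175). The calls of Pgf, Eci1 (mitochondrial fatty acid oxidation; 0.87 ± 0.17, adjusted p = 0.0141) and Ccdc64 (a motor adaptor; 1.05 ± 0.25, adjusted p = 0.0448) were lost when single libraries were left out: Pgf without SHP2-null replicates 2 or 3 or wild-type replicates 0, 1 or 3 (adjusted p from 0.0750 to 0.0807), Eci1 without SHP2-null replicate 2 or wild-type replicate 2 (adjusted p from 0.0517 to 0.0578), and Ccdc64 without SHP2-null replicates 0 or 2 or wild-type replicates 0, 1 or 2 (adjusted p from 0.0614 to 0.145). Ccdc64 was not called after median-ratio scaling either (adjusted p = 0.0516).

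Adhesion and movement genes changed in both directions. Of 15 tested chemokine receptors, integrins and homing genes, Itgal and Cdh17 fell and Cxcr4 rose (background 0.521% lower and 0.942% higher). Itgal, the LFA-1 integrin chain of leukocytes, measured 2.12, 2.30, 2.59 and 2.74 FPKM in the wild-type libraries and 1.19, 1.31, 0.578 and 1.37 FPKM in the SHP2-null ones (-0.72 ± 0.11, adjusted p = 0.00360; 0.0787 on the 8 libraries alone). Cdh17, a cadherin found on B-lineage progenitors, was at 10.2, 9.87, 22.5 and 19.6 FPKM in the wild-type libraries and 3.44, 3.17, 1.06 and 9.22 FPKM in the SHP2-null ones (-1.81 ± 0.37, adjusted p = 0.0207; 0.172 on the 8 libraries alone). Wild-type replicates 2 and 3 and SHP2-null replicate 3 were the high libraries of their groups, and the call was lost without SHP2-null replicate 1 or wild-type replicates 2 or 3 (adjusted p from 0.0503 to 0.0843).

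Cxcr4, the receptor that holds progenitors in the marrow, rose from 57.02 ± 7.78 to 77.1 ± 5.98 FPKM (0.44 ± 0.095, adjusted p = 0.0297), a call lost without SHP2-null replicates 0, 1 or 2 or wild-type replicates 2 or 3 (adjusted p from 0.0575 to 0.111). It was also lost after quantile normalization (adjusted p = 0.121) and on the 8 libraries alone (0.166). Myh10, the heavy chain of non-muscle myosin IIB, rose from 30.7, 35.6, 38.9 and 34.8 FPKM in the wild-type libraries to 59.4, 54.5, 96.4 and 71.2 FPKM in SHP2-null cells (0.96 ± 0.14, adjusted p = 0.00154; 0.000757 without SHP2-null replicate 2; 0.0587 on the 8 libraries alone).

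The B-lineage programme showed few called changes. None of 25 pre-B cell receptor and adaptor genes (median 0.11), 15 V(D)J recombination genes (0.10) or 15 developmental stage markers (0.13) was called by limma. Of these, 5, 1 and 4 had an unadjusted p under 0.05 (background 16.0%), and with the block 4, 1 and 3 were called (background 5.85%). Without SHP2-null replicate 2, Blk of the receptor list and the stage marker Ly6d (adjusted p = 0.0402) were called; Ly6d was at 61.9, 72.2, 40.6 and 39.9 FPKM in the wild-type libraries and 149, 147, 39.1 and 75.1 FPKM in the SHP2-null ones, with overlap (adjusted p = 0.270), and is named after its values were seen. Pax5, which commits cells to the B lineage, was at 70.5, 80.9, 58.8 and 56.01 FPKM in the wild-type libraries and 95.2, 94.8, 58.96 and 45.8 FPKM in the SHP2-null ones, and its groups overlapped (adjusted p = 0.894). Blnk, the linker of the pre-B cell receptor, was at 76.8 to 82.01 against 87.9 to 115 FPKM (adjusted p = 0.146; 0.0332 with the block, 0.0678 with it but without SHP2-null replicate 2). Rag1, a recombinase subunit, was at 24.96 FPKM in SHP2-null replicate 2 and at 3.41 to 4.45 FPKM in the other SHP2-null libraries (adjusted p = 0.636).

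Of 32 tested B-lineage and progenitor transcription factors, Erg was the only one called. Without SHP2-null replicate 2 there were 2, Erg and Irf8 (background 0.992%), and with the block 3 (background 5.85%). Irf8, an interferon-regulatory factor of B and myeloid cells, was at 43.7 to 50.9 FPKM in wild type, 33.6 FPKM in SHP2-null replicate 2 and 59.8 to 70.4 FPKM in the other SHP2-null libraries (adjusted p = 0.534; 0.00816 without that library), and is named after its values were seen. Erg, an ETS factor of early progenitors, rose from 36.6, 34.5, 28.7 and 27.5 FPKM in the wild-type libraries to 45.97, 40.5, 72.9 and 54.7 FPKM in SHP2-null cells (0.71 ± 0.15, adjusted p = 0.0237; 0.0494 without SHP2-null replicate 2; 0.167 on the 8 libraries alone). The call was lost without SHP2-null replicate 3 or wild-type replicates 2 or 3 (adjusted p from 0.0542 to 0.0930). Its change was 0.27 in numbers 0 and 1 and 1.14 in numbers 2 and 3. Ebf1 (0.27 ± 0.12, adjusted p = 0.296) and Myb (0.24 ± 0.088, adjusted p = 0.192) did not pass the test.

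No gene of the growth and metabolic lists was called. Of 26 tested glycolysis and hypoxia-responsive genes 22 had negative changes, with a median of -0.45 and 7 at an unadjusted p under 0.05. The median was -0.015 in numbers 0 and 1 and -0.73 in numbers 2 and 3, and it was -0.20 without wild-type replicate 3. Ldha, lactate dehydrogenase A, shows the pattern, at 440.02, 515, 681 and 945 FPKM in the wild-type libraries and 453, 428, 288 and 505 FPKM in the SHP2-null ones: wild-type replicates 2 and 3 were high and the other libraries overlapped (adjusted p = 0.289). Hk2, the first kinase of glycolysis, was at 9.67 to 13.7 against 7.12 to 8.82 FPKM (-0.45 ± 0.12, adjusted p = 0.0782; 0.0414 with the block, 0.127 with it but without SHP2-null replicate 2).

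Of 40 MYC targets and ribosome biogenesis genes 32 had negative changes, and 4 had an unadjusted p under 0.05. With the block 1 was called (background 5.85%). The median was -0.11, and -0.0026 without SHP2-null replicate 2. Myc itself was at 35.2, 48.6, 32.7 and 45.96 FPKM in the wild-type libraries and 41.1, 37.2, 28.1 and 29.2 FPKM in the SHP2-null ones, with overlap (adjusted p = 0.551). Among 11 MYC, MAX and MXD genes none was called by limma (3 at an unadjusted p under 0.05), and with the block 2 were (background 5.85%). Mxd4, a MYC antagonist, was at 5.97 to 8.40 against 9.45 to 15.6 FPKM (0.59 ± 0.16, adjusted p = 0.0903, and 0.00852 with the block). No member was called of 22 PI3K, AKT and mTOR genes (median 0.11), 16 p53 genes (0.0053), 14 BCL2-family genes (0.051), 26 cholesterol and fatty acid genes (-0.020) or 27 respiratory chain genes (-0.042), and 5, 3, 2, 2 and 0 of these had an unadjusted limma p under 0.05. With the block 4, 2, 2, 2 and 0 were called (background 5.85%), the first 4 being Pdpk1, Pik3ap1, Akt2 and Rptor, all higher, with adjusted p from 0.0225 to 0.0434; without SHP2-null replicate 2 as well, these were 0.0572 to 0.106.

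**Figure D5:**
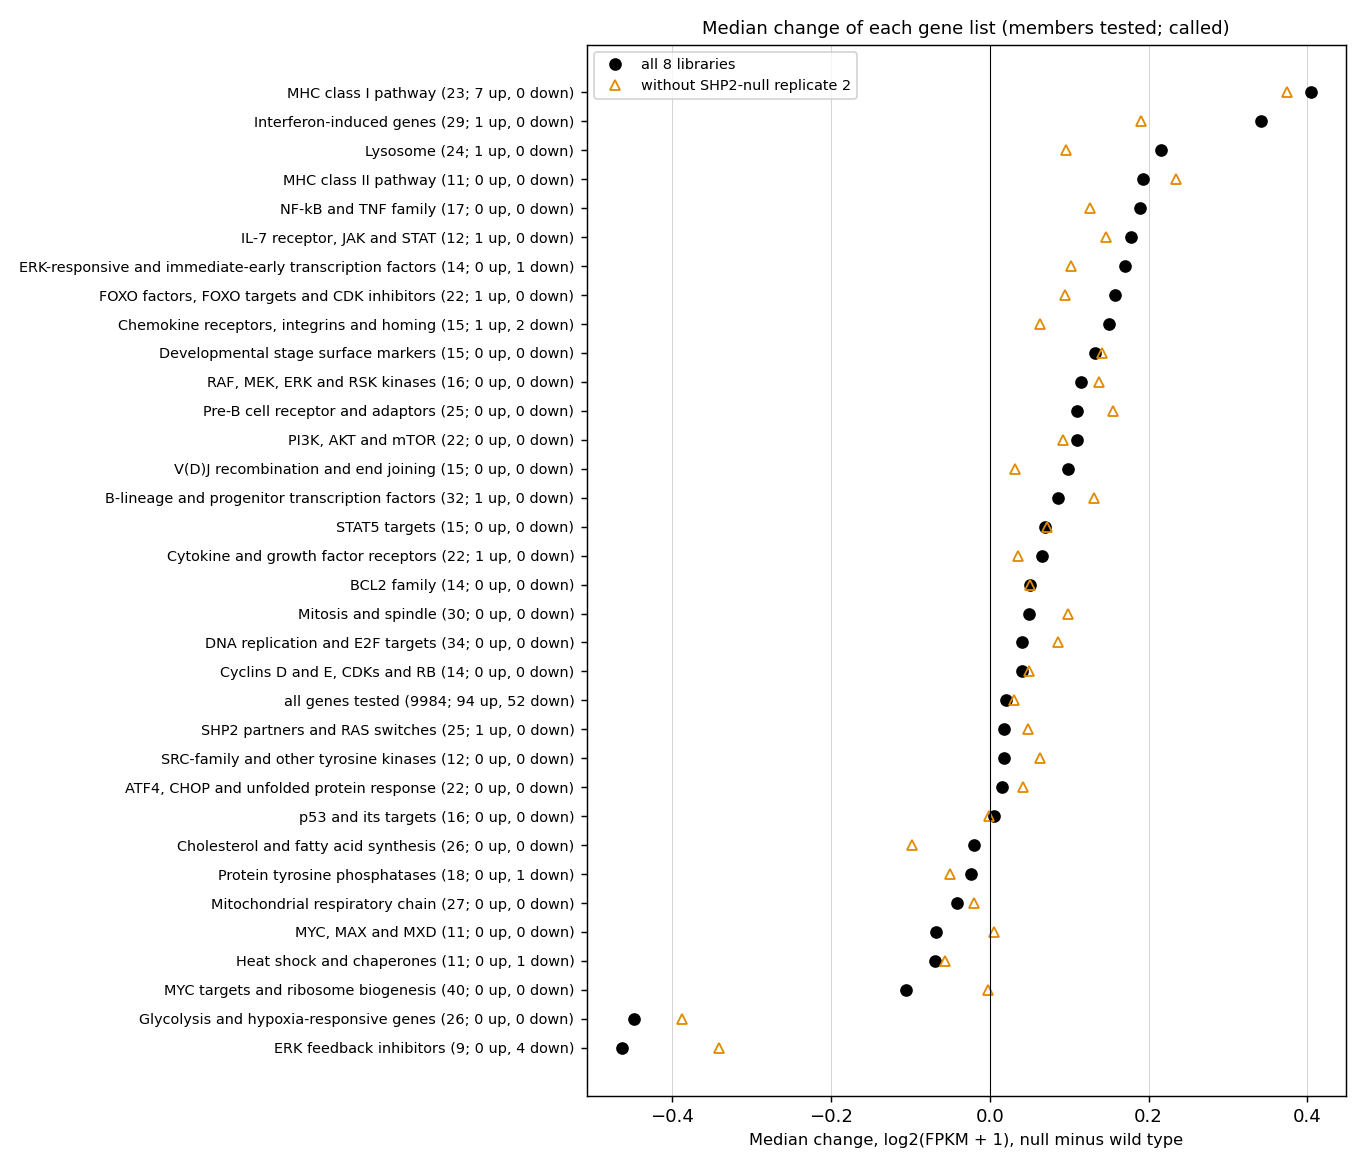
Median change of the tested members of each gene list, SHP2 null minus wild type on the log2(FPKM + 1) scale, with all 8 libraries (black) and without SHP2-null replicate 2 (open orange triangles); each label gives the members tested and those called in each direction. The ERK feedback inhibitors and the glycolysis genes lie lowest, at -0.46 and -0.45, the MHC class I and interferon lists highest, and the interferon list moves to 0.19 without that library.

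The called genes were spread unevenly over the chromosomes. On chromosome 5, which carries Ptpn11 and Hspb8, 30 of 623 tested genes were called (4.82%), on chromosome 17, which carries the MHC, 27 of 543 (4.97%), and on all other chromosomes 88 of 8771 (1.003%), with 1 called gene of no matched position. On the 8 libraries alone the counts were 11, 8 and 14, and without SHP2-null replicate 2 they were 20, 18 and 61. The MHC class I genes called on chromosome 17 (all 7 but Nlrc5) are 6 of its 27. Within 20 Mb of Ptpn11, leaving out Ptpn11 itself, 25 of 299 tested genes were called (8.36%), among them Hspb8 (chr5:116408491-116422864). What lies behind this was not tested.

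In the pre-B cells with BCR-ABL1, which are separate libraries, 23 of the same 9984 genes (0.23%) were called between SHP2-null and wild-type libraries. Of these 21, or 91.3%, were among the 146, of which they are 14.4%. Both tests came from the same fit and used the same error estimate for each gene, so their calls are not independent. All 21 had the same direction in both settings, and 9 lay on chromosome 5, 7 on chromosome 17 and 5 elsewhere: Grina, Mid1, Nnt, 4632428N05Rik and Gm10653, of which Nnt, 4632428N05Rik and Gm10653 are named here after their values were seen. Ptpn11 changed by -1.45 ± 0.19 without BCR-ABL1 and by -1.73 ± 0.19 with it, Hspb8 by -2.16 ± 0.27 and -2.80 ± 0.27, and Mid1 by -1.05 ± 0.17 and -1.09 ± 0.17.

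No gene passed the test for a difference of the SHP2 effect between the settings. In limma the interaction was called for 0 of 9984 genes at an adjusted p under 0.05, and 574 (5.75%) had an unadjusted p under 0.05; the smallest adjusted p was 0.0924, for Rnase12. Il7r changed by 0.81 ± 0.12 without and -0.0095 ± 0.12 with BCR-ABL1 (interaction adjusted p = 0.381). For Etv5 the changes were -1.57 ± 0.26 and -0.21 ± 0.26 (0.603), for Dusp6 -1.46 ± 0.24 and -0.41 ± 0.24 (0.763), and for H2-T10 0.58 ± 0.065 and 0.17 ± 0.065 (0.384). These 4 genes were called without BCR-ABL1 and not with it, and the difference itself was not shown for any of them.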

How the data were processed

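Poly(A) RNA (150 ng per sample) from mouse pre-B cells was made into stranded libraries and sequenced paired-end for 100 cycles, per the labels' protocols, which also say that sets of 4 libraries, 1 of each genotype, were loaded together. The deposited values are FPKM per gene; Bowtie, Cufflinks and the builds mm10 and GRCm38 are named in the submitters' processing notes, with no versions. FPKM carries no counts, and low values did not give whole reads (the commonest step ratio held for at most 18.5% of low genes in any pair of libraries), so depth is unknown and no count test was run; summed FPKM ran from 353202 to 433489 over the 8 libraries. Fragments of similar genes may have been shared out, and FPKM is relative to each library's total.

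Rows of the same symbol (254 symbols, 733 of 23758 entries) were summed. Genes that reached 1 FPKM in 4 or more of the 8 libraries were tested with limma 3.58.1 (R 4.3.3) on log2(FPKM + 1), with 4 group means over all 16 libraries, a trended prior and Benjamini-Hochberg adjustment, a call being an adjusted p under 0.05. A pseudocount of 1 understates changes of low genes. On simulated data with the same 9984 genes, 48 and 44 of 50 genes changed by -1 and 1 (log2) were recovered, and 11 unchanged genes were called. The simulated noise was drawn separately for each gene and library, with no effect shared by a replicate number and no library standing apart. It therefore cannot show how often the test errs on these libraries. The labels do not say whether the libraries loaded together share a replicate number. Libraries with the same number deviated from their group means together (r from 0.207 to 0.520 over the 4 numbers). A fit with the replicate number as a block is therefore given beside described genes and lists whose calls it changed. Pairs of different numbers ran from r = -0.531 to 0.541, and 6 of the 8 libraries correlated best with their own number.

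The comparison, the 33 gene lists, the 8 marker lists and the naming rule were chosen with earlier results of these data known. Named were Ptpn11, the 15 largest rises and falls among called genes whose groups did not overlap (no provisional symbols, small RNAs, pseudogenes or V, D and J segments), up to 6 members per list with the smallest p, and marker genes; Hspb8, Htra3, Fam129c and other names come from this rule, and H2-K1 was added to complete the called class I members after its values were seen, as were those the text marks so. Gene positions and promoters are from RefSeq (GRCm38.p6). Alternatives were another pseudocount, filters, scalings, array weights, the block, the 8 libraries alone and leaving out each library; 3 more were added after the data were seen. Python 3.11.15 was used for summaries.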

Additional observations from a re-analysis of the deposited data

Results flagged for a closer look

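In each group of 4 libraries, the highest or lowest value of a named gene was picked out when its gap to the nearest other library was larger, as a share of the group's whole range, than Dixon's critical value allows; chance alone flags about 1 in 20 groups, and 20 of 224 groups were picked out, 11 of them by SHP2-null replicate 2.

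SHP2-null replicate 2 was the high library for the macrophage genes Lyz2 (402.6 FPKM, the other 3 at 6.08 to 34.3) and Gpnmb (88.3 FPKM, the others at 1.59 to 8.78), for the lysosomal gene Psap (238.7 FPKM, the others at 149.1 to 158.0), for Rag1 (25.0 FPKM, the others at 3.41 to 4.45) and Il2ra (11.7 FPKM, the others at 2.09 to 2.85), for the interferon-responsive genes Irf9 (15.1 FPKM, the others at 8.16 to 8.60) and Parp14 (17.7 FPKM, the others at 11.8 to 12.0), and for H2-Q4 (59.1 FPKM, the others at 41.1 to 42.0), Gab2 (7.17 FPKM, the others at 4.00 to 4.51) and Ccdc64 (7.18 FPKM, the others at 2.43 to 3.06). The library thus held high values of macrophage genes and of the lymphoid genes Rag1 and Il2ra together.

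SHP2-null replicate 2 was low for Pik3ap1 (22.2 FPKM, the others at 28.5 to 28.9). SHP2-null replicate 3 was high for Gas7 at 6.97 FPKM and low for 4632428N05Rik at 1.89 FPKM. Among wild-type libraries, replicate 1 was high for H2-Q9 (1.20 FPKM) and Nlrc5 (20.1 FPKM), replicate 2 for Sulf2 (4.25 FPKM), replicate 3 for Vpreb1 (462.8 FPKM) and Npm1 (1711 FPKM), and replicate 0 was high for Tmem254b (20.6 FPKM) and low for Mxd4 (5.97 FPKM). No gene passed the interaction test for a difference of the SHP2 effect between cells without and with BCR-ABL1.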

How the results depend on the processing

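The 146 calls became 69 with only genes of a mean of at least 5 FPKM tested (7152 genes), 584 with the replicate block, 648 with array weights, 33 in the fit on the 8 libraries alone, and 31 in that fit with the replicate block. In 3 settings chosen after the data were seen, the count was 37 on the 8 libraries without SHP2-null replicate 2, 283 with the replicate block and without that library, and 510 with a term for numbers 0 and 1 against 2 and 3. Leaving out 1 library at a time gave 76 to 162 calls, with 76 without wild-type replicate 2, 96 without wild-type replicate 3 and 99 without SHP2-null replicate 2. The other 4 settings (pseudocount 0.1, no filter, median-ratio scaling, quantile normalization) gave 145 to 183. The 0 interaction calls became 3 with no filter, 1 after quantile normalization, 2 with array weights, 5 with the replicate block and without SHP2-null replicate 2, and 6 with the term for numbers; the leave-one-out fits gave 0 or 1, and the replicate block alone 0. The difference in Ptpn11 was -10.96 FPKM, and -11.5 to -9.99 with 1 library left out. The cause of these shifts was not tested.

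Of 49 called genes examined by name, none changed direction under any setting run (the block and the 8-library fits cannot change it), 32 kept their call whichever library was left out, 32 lost it on the 8 libraries alone, 12 without SHP2-null replicate 2, 15 without wild-type replicate 2 and 0 with the replicate block. Among the genes examined by name that missed the threshold, 38 passed with the replicate block; 13 of these also passed with it and without SHP2-null replicate 2, and 3 (Socs3, Mxd3 and H2-Aa) in the block fit on the 8 libraries alone. Those described nowhere else are Stat5b, Btg2, Selplg, Cd72, Ets1, Ptpra, Mxd3 and Heatr1, with adjusted p between 0.0135 and 0.0488 with the block. Blk, not called, moved from -0.060 to between -0.28 and 0.49 with 1 library left out, reversing to 0.49 without SHP2-null replicate 2, and to 0.52 with the block and without it. The sources give no counts, so how far depth limits the low genes (Nlrp6, H2-Q9, Spred2) cannot be stated.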

Other observations

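Of 24 tested lysosomal genes 22 had positive changes and 8 an unadjusted p under 0.05, with a median of 0.22, and 0.10 without SHP2-null replicate 2. Psap, the precursor of the saposins that help degrade sphingolipids, was the only one called, and with the replicate block 4 were (background 5.85%). Psap measured 105, 110.1, 115 and 104 FPKM in wild-type replicates 0 to 3, and 158, 149, 239 and 158 FPKM in the SHP2-null ones, so that all SHP2-null libraries were above all wild-type ones and replicate 2 was the highest (0.66 ± 0.12, adjusted p = 0.00667 in limma). Without that library the change was 0.51 (adjusted p = 0.00152), and on the 8 libraries alone the adjusted p was 0.126. Glb1, lysosomal beta-galactosidase, lay the other way, at 11.2 to 14.3 FPKM in wild type and 9.55 to 10.98 FPKM in SHP2-null cells (adjusted p = 0.0532; 0.0257 with the replicate block).

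None of 17 NF-kappaB and TNF-family genes (median 0.19) and none of 22 genes of the ATF4 and unfolded protein responses (0.015) was called by limma, with 9 and 1 at an unadjusted p under 0.05. With the replicate block 1 and 0 were called (background 5.85%). The 1 was Lta, lymphotoxin alpha, named after its values were seen (adjusted p = 0.0334 with the block, 0.0881 with it but without SHP2-null replicate 2). Of 11 heat-shock and chaperone genes only Hspb8 was called, and the median of the list was -0.069. The p53 target Zmat3 was at 3.53, 3.60, 6.24 and 5.15 FPKM in the wild-type libraries and 3.03, 2.91, 1.51 and 2.03 FPKM in the SHP2-null ones; its groups did not overlap, and it missed the threshold (adjusted p = 0.0564 in limma; 0.0353 with the replicate block, 0.111 with it but without SHP2-null replicate 2). The lipid genes Scd2, a fatty acid desaturase, and Mvk, mevalonate kinase, lay in opposite directions at -0.68 ± 0.18 and 0.56 ± 0.16 (adjusted p of 0.0832 and 0.104 in limma; 0.0385 and 0.0304 with the replicate block, 0.0934 and 0.0955 with it but without SHP2-null replicate 2).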
